A study of Homo sapiens with 31 samples.

Results

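The genes of parthanatos around PARP1 are 8 genes of poly(ADP-ribose)-driven cell death: PARP1, PARP2, PARG, AIFM1, MIF, RNF146, NAMPT and NMNAT1. They were chosen by symbol from a table of 74834 rows, of which 16259 had enough reads to be tested, and all 8 passed that filter. Each of 7 has a row of its own, whereas PARG shares a row with its pseudogene PARGP1. The data are messenger RNA levels in H460, a cell line from a human lung cancer of the non-small cell type, from 31 poly(A) RNA sequencing libraries in 8 groups. The series asked how the treatments change transcription in connection with cell death, and its title concerns MDM2 inhibitors given with the combination of DMKG and B87.

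Every group was treated for 6 h. B87+DMKG+Rita (n = 4) and B87+DMKG+Nutlin-3 (n = 4) are the triple treatments and B87+DMKG (n = 4) is the double one. Rita was given at 50 µM (n = 4) and Nutlin-3 at 30 µM (n = 3), both small molecules that free p53 from its ubiquitin ligase MDM2. DMKG, dimethyl α-ketoglutarate, enters cells and releases a citric acid cycle intermediate, and was given at 5 mM (n = 4). B87 is BAY87-2243, which blocks complex I of the respiratory chain, at 1 µM (n = 4). The Control cells had no treatment (n = 4), and no vehicle group is named. Each library joined 2 wells, and the labels do not say that replicates came from separate experiments. The p-values therefore rest on the spread among these libraries alone, which may be technical.

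Parthanatos is a regulated, caspase-independent death that starts when DNA breaks overactivate PARP1. The enzyme then consumes NAD+ to build poly(ADP-ribose), the polymer prompts release of the protein AIF from mitochondria, and AIF with the nuclease MIF carries the fragmentation of nuclear DNA. PARG degrades the polymer, the ubiquitin ligase RNF146 marks polymer-carrying proteins for destruction, and NAMPT and NMNAT1 rebuild NAD+. The pathway runs through protein activity and movement between compartments, none of which RNA levels measure.

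The libraries held 33441414 to 82493612 whole reads (median 63089433). MDM2 and CDKN1A, RNAs that p53 induces, served as a check of the labels. MDM2 stood at 72583 ± 9402 normalized read counts in Nutlin-3 (SD, n = 3), 11099 ± 789 in Rita and 6525 ± 328 in Control (SD, n = 4 each), and CDKN1A at 84255 ± 6459, 29203 ± 1377 and 4414 ± 210 in the same groups. CDKN1A was also high in B87+DMKG+Nutlin-3 (46296 ± 3692) and B87+DMKG+Rita (33195 ± 864; SD, n = 4 each). MDM2 was high in B87+DMKG+Nutlin-3 (14461 ± 1215). In B87+DMKG+Rita (7722 ± 458) it was above B87+DMKG (4081 ± 355, SD, n = 4), by 0.92 ± 0.09 on the log2 scale (limma adjusted p = 1.3e-10). MDM2 in B87+DMKG+Rita was also above Control (0.24 ± 0.09, limma adjusted p = 0.0166), but no higher than in DMKG (7908 ± 817). Of 6 epithelial markers, KRT8, KRT18 and KRT19 were at 44501 or more in every library, whereas CDH1 was at 8.21 or less and EPCAM at 85.0 or less. Of the leukocyte markers, PTPRC was at most 7.80, CD3E at most 1.75 and ITGAM at most 19.2, whereas CD14 was at 47.0 to 273 and CD68, measured only in a row shared with another gene, at 182203 or more. Of the endothelial markers, PECAM1, CDH5 and TEK were at most 3.51, VWF at most 10.1 and KDR at most 61.5. Summed over the markers with a row of their own, the 4 fibroblast genes stood at 1052 to 1137 in B87+DMKG+Rita, 857 to 1021 in B87+DMKG+Nutlin-3, 506 to 713 in B87+DMKG and 773 to 837 in Control. The 6 epithelial genes summed to 346191 to 394273 in B87+DMKG+Rita, 347571 to 417485 in B87+DMKG+Nutlin-3, 205915 to 314057 in B87+DMKG and 246180 to 280522 in Control. The 5 leukocyte genes, mostly CD14, summed to 171 to 253 in B87+DMKG+Rita, 208 to 276 in B87+DMKG+Nutlin-3, 67.1 to 114 in B87+DMKG and 209 to 257 in Control. The 5 endothelial genes summed to 5.66 to 21.0 in B87+DMKG+Rita, 8.57 to 18.1 in B87+DMKG+Nutlin-3, 32.0 to 66.0 in B87+DMKG and 9.55 to 21.4 in Control, and the part of these markers in the results was not tested. Mitochondrially encoded RNA took 2.47% to 3.33% of the reads in B87+DMKG+Rita, 3.34% to 3.67% in B87+DMKG+Nutlin-3, 2.24% to 7.51% in B87+DMKG, 2.69% to 4.76% in Rita, 2.42% to 5.39% in Nutlin-3 and 1.49% to 2.15% in Control. All libraries of these 5 treatments lay above those of Control, and the part of this share in their results was not tested. Fewer cells and less RNA per cell cannot be told apart in these libraries, and no spike-in values were used here, so every value is relative to the rest of the transcriptome.

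Promoter sequences are shown for PARP1, PARP2 and NMNAT1: the paralogs moved in opposite directions under B87+DMKG, and NMNAT1 had the widest range of the 8 genes. They are the 250 bases upstream of the RefSeq start, 5′ to 3′ on the gene's strand, from RefSeq on GRCh38.p14, a newer build than hg19, on which the expression table gives its positions. All 8 genes matched the RefSeq table, with 9 promoters because RNF146 has 2 starts. Capitals mark letters of the searched motifs.
PARP1, chr1:226408094-226408343, strand -: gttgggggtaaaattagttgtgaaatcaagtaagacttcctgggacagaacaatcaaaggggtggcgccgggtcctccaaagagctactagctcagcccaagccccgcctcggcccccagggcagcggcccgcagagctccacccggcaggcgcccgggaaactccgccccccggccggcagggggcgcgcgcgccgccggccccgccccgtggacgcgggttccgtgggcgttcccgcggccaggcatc
PARP2, chr14:20343385-20343634, strand +: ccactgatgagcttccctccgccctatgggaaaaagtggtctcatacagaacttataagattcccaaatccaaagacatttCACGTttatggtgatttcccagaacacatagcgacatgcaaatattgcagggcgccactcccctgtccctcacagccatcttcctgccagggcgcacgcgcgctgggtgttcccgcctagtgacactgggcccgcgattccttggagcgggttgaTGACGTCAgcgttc
NMNAT1, chr1:9943225-9943474, strand +: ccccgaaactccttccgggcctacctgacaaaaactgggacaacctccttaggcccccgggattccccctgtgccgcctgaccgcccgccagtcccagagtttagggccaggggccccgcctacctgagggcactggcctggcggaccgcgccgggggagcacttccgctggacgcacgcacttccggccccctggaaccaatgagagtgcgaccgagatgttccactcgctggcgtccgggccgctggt
The letters searched, on both strands of 250 bases before to 50 after the start, were TGACGTCA (the cyclic AMP response element), ACGTG (the core of the hypoxia response element), GCGNGGGCG (an EGR1 motif) and GCATGCGC (an NRF1 motif). Among all 35116 promoters of the table, 1.85%, 21.4%, 9.43% and 3.05% held them, in that order. The PARP2 sequence holds TGACGTCA from base -14 and, without overlap, ACGTG on the other strand from -169. Neither the PARP1 nor the NMNAT1 window holds any of the 4, nor do those of PARG and NAMPT. AIFM1 has GCATGCGC at -82, MIF has GCGNGGGCG at -50 and ACGTG at +22, and RNF146 has ACGTG at -108 of its first start and on both strands near its second. In the bases printed, G and C made up 70.4% in PARP1, 54.4% in PARP2 and 68.8% in NMNAT1, and the CG dinucleotide occurred 26, 14 and 21 times in that order.

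Levels differed widely between the 8 genes. As normalized read counts per kilobase of exon in Control, MIF stood highest (25851), followed by NAMPT (12271), PARP1 (2733), AIFM1 (2611), PARP2 (1222), the PARG row (275), RNF146 (200.5) and NMNAT1 (31.8). The combined PARG row covers chr10:51026321-51729973 on hg19, a span that also holds TIMM23B, NCOA4 and TIMM23, and whether reads were assigned by strand is not given in the sources used here. Its values are therefore uncertain as a measure of PARG itself. Across the 8 group means, the ratio of the highest to the lowest was 4.30 for NMNAT1, 2.84 for PARG, 2.44 for RNF146, 2.35 for PARP1, 2.09 for NAMPT, 1.57 for MIF, 1.47 for PARP2 and 1.33 for AIFM1.

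**Figure D1:**
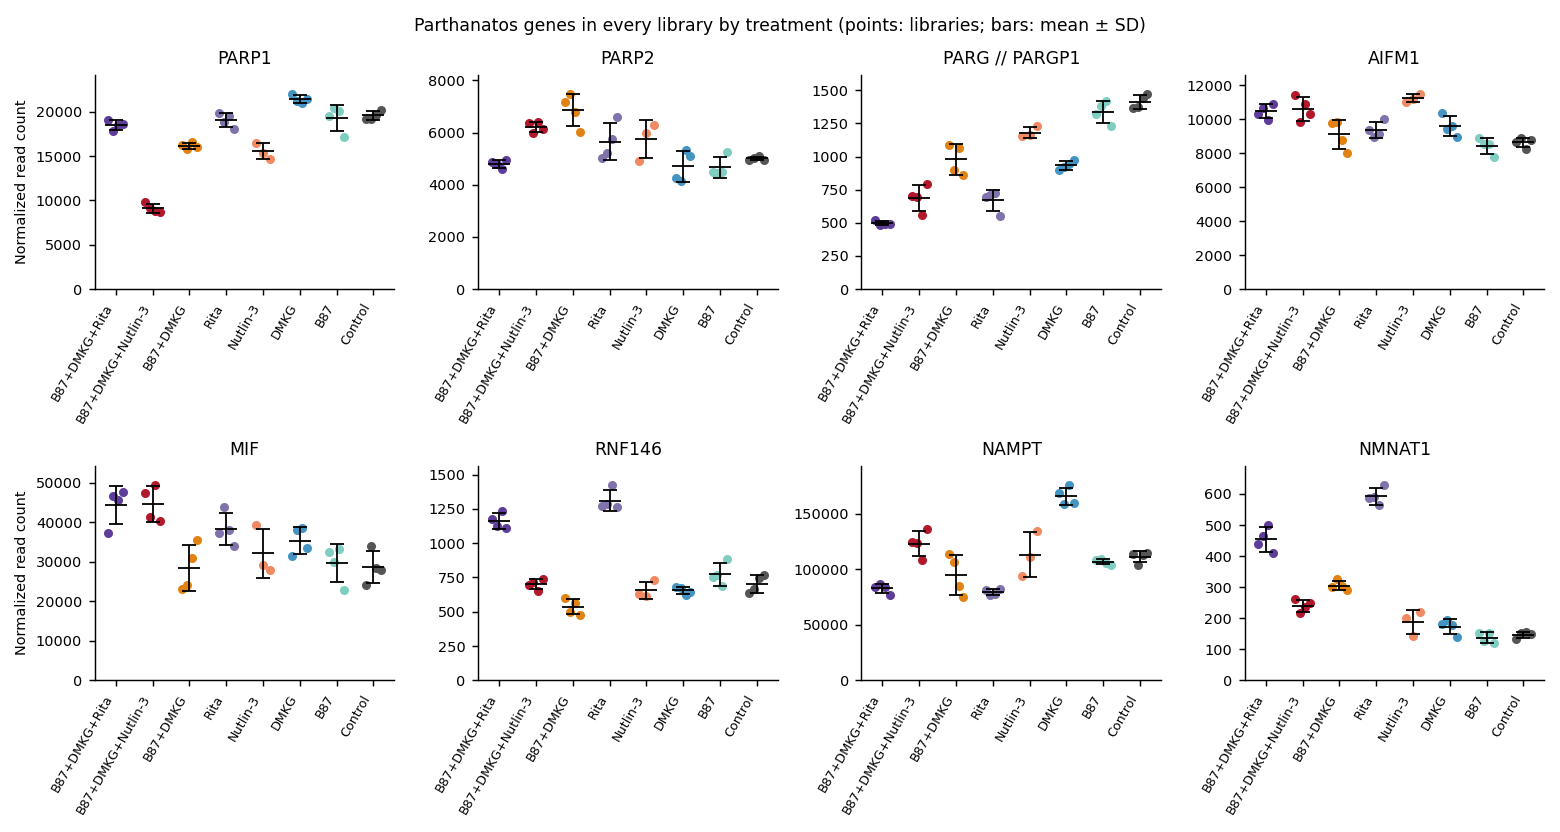
Normalized read count (y axis, from 0) of each of the 8 genes in every library by treatment (x axis), with points for libraries and bars for the mean ± SD. The 4 B87+DMKG+Nutlin-3 libraries have the lowest PARP1 values (8669 to 9777), and the 4 Rita libraries the highest NMNAT1 values (564 to 628).

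Changes below are log2 fold changes of the normalized read count plus 1, with limma's standard error, and a gene rose or fell where limma's adjusted p over all 16259 rows was under 0.05. Against Control, 0 of the 8 genes were called in B87 alone (0.0431% of all rows, 0.0308% higher and 0.0123% lower, which is 7 rows, with 904 at an unadjusted p under 0.05). The 8 values ranged from -0.10 (PARP2) to 0.13 (RNF146). On whole reads, edgeR and DESeq2 called 0 of the 8 as well, and 8 and 30 rows in all. DMKG changed 2 genes (41.4% of all rows), NAMPT up (19.6%) and PARG down (21.8%). B87+DMKG changed 6 (61.0%), with PARP2 and NMNAT1 up (30.2%) and PARP1, PARG, RNF146 and NAMPT down (30.8%). Nutlin-3 changed 4 (39.1%), with AIFM1 and NMNAT1 up (18.5%) and PARP1 and PARG down (20.7%). Rita changed 5 (52.1%), with MIF, RNF146 and NMNAT1 up (25.8%) and PARG and NAMPT down (26.3%).

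B87+DMKG+Nutlin-3 changed 6 of the 8 genes against Control (58.0% of all rows), with PARP2, AIFM1, MIF and NMNAT1 up (28.3%) and PARP1 and PARG down (29.7%). B87+DMKG+Rita also changed 6 (60.1%), with AIFM1, MIF, RNF146 and NMNAT1 up (29.4%) and PARG and NAMPT down (30.7%). Against B87+DMKG, the comparison that shows what each inhibitor added, Nutlin-3 changed 7 (58.9%), 4 up (26.5%) and 3 down (32.3%), and Rita changed 7 (67.3%), 5 up (33.1%) and 2 down (34.2%). The comparisons with Control share its 4 libraries, and those with B87+DMKG share that group's libraries with the comparison of B87+DMKG and Control, with the opposite sign. The share of the 8 genes called was within 1 gene of the share of all rows for B87, Nutlin-3 and Rita, lower by more than that for DMKG and higher by more than that for the other 5 comparisons. The counts moved with the scaling, to 5 for B87+DMKG after quantile normalization. With every library scaled to the same total they were 5 for B87+DMKG+Nutlin-3 and 7 for B87+DMKG+Rita. The 8 genes were chosen with earlier results of these data known, so these differences are not read as a trait of the set.

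The median over the 8 genes was 0.20 for Rita added to B87+DMKG, beside 0.00 over all rows, and 0.04 for Nutlin-3 added, beside -0.05.

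**Figure D2:**
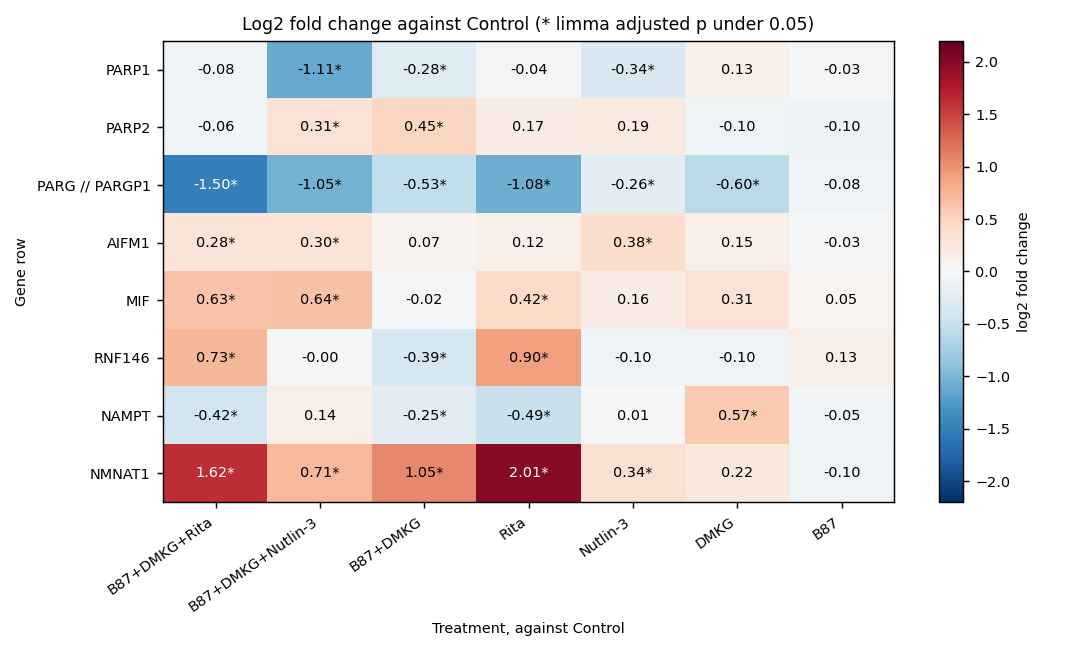
Log2 fold change against Control (colour and printed value) of the 8 genes (rows) in 7 treatments (columns), where an asterisk marks a limma adjusted p under 0.05. The PARG row is called lower in 6 of the 7, NMNAT1 is called higher in 5, and no gene is called in B87.

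PARP1, the polymerase that senses DNA breaks and makes most of the polymer, fell most in the Nutlin-3 triple treatment. It had 9777, 9133, 8830 and 8669 normalized read counts in B87+DMKG+Nutlin-3, against 16205, 15754, 16645 and 16020 in B87+DMKG. The Control libraries had 19227, 19213, 19690 and 20250. Every library of the triple treatment lay below every library of all other groups. The log2 fold change was -0.83 ± 0.06 against B87+DMKG (adjusted p = 1.5e-13) and -1.11 ± 0.06 against Control (adjusted p = 4.2e-17), at percentiles 18.3 and 10.9 of all rows tested.

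Smaller falls of PARP1 were called in Nutlin-3 and in B87+DMKG. Nutlin-3 libraries had 16495, 15380 and 14714 normalized read counts, and the log2 fold change against Control was -0.34 ± 0.06 (adjusted p = 3.9e-05). B87+DMKG gave -0.28 ± 0.06 (adjusted p = 6.8e-05), and in both treatments all libraries lay below all Control libraries. DMKG libraries (20979 to 22009) all lay above Control, at 0.13 ± 0.06, which missed the threshold (adjusted p = 0.0599). It passed with DESeq2 (adjusted p = 0.0389) and when only the groups compared were fitted (0.0401).

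With Rita the PARP1 values depended on the scaling. B87+DMKG+Rita libraries had 19090, 17807, 18482 and 18624 normalized read counts, all above the B87+DMKG libraries and all below the Control libraries. The log2 fold change against B87+DMKG was 0.20 ± 0.06 (adjusted p = 0.00255). With every library scaled to the same total it was -0.047 (adjusted p = 0.512), and after quantile normalization 0.02 (0.828). Against Control it was -0.08 ± 0.06 (adjusted p = 0.196), and a fall of -0.34 was called with the same total (1.62e-05) and one of -0.30 after quantile normalization (0.000141). Rita alone had 18080 to 19838, overlapping Control, at -0.04 ± 0.06 (adjusted p = 0.582), and was called lower under both alternatives, at -0.21 (0.00376) and -0.17 (0.0233). In the order of group means, DMKG (21427) led, Control (19595), B87 (19289), Rita (19085) and B87+DMKG+Rita (18501) followed with overlapping neighbours, B87+DMKG (16156) and Nutlin-3 (15530) overlapped each other, and B87+DMKG+Nutlin-3 (9102) was last.

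PARP2, the second DNA-dependent polymerase of the family, rose where PARP1 fell under the double treatment. It had 7170, 7476, 6774 and 6036 normalized read counts in B87+DMKG, against 4965, 5027, 5082 and 4942 in Control. All B87+DMKG libraries were higher, with a log2 fold change of 0.45 ± 0.09 (adjusted p = 6.5e-05). Adding Rita gave 4888, 4808, 4598 and 4946, below all B87+DMKG libraries, at -0.51 ± 0.09 against them (adjusted p = 9.8e-06). Against Control, B87+DMKG+Rita stood at -0.06 ± 0.09 (adjusted p = 0.593), but was called lower with the same total (-0.31, 0.0018).

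The Nutlin-3 triple treatment had 6367, 5988, 6404 and 6145 normalized read counts of PARP2. These lay above all Control libraries (log2 fold change 0.31 ± 0.09, adjusted p = 0.00319), a call lost with the same total (0.15, adjusted p = 0.119). Against B87+DMKG the change was -0.14 ± 0.09 (adjusted p = 0.188), and a fall was called with the same total (-0.28, 0.00506) and after quantile normalization (-0.20, 0.0442). RPPH1, the RNA subunit of RNase P, lies 202 bases from PARP2 on hg19 chromosome 14, and its part in the PARP2 values was not tested. It was called higher in B87+DMKG+Rita against B87+DMKG (1.27 ± 0.50, adjusted p = 0.0259), where PARP2 was lower, and against Control (1.16 ± 0.50, adjusted p = 0.0447).

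PARG, the glycohydrolase that removes poly(ADP-ribose), was measured as the combined row PARG // PARGP1 and was lower in 6 of the 7 treatments. The row had 521, 481, 494 and 492 normalized read counts in B87+DMKG+Rita, against 1363, 1374, 1439 and 1472 in Control. B87+DMKG+Nutlin-3 had 704, 693, 560 and 792, and Rita 695, 712, 724 and 555. No library of these 3 treatments reached the lowest Control value. Log2 fold changes against Control were -1.50 ± 0.09 for B87+DMKG+Rita (adjusted p = 2.9e-14), -1.05 ± 0.09 for B87+DMKG+Nutlin-3 (7.0e-11) and -1.08 ± 0.09 for Rita (7.9e-11). They lay at percentiles 5.35, 11.9 and 7.28 of all rows.

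The PARG row also fell in DMKG (-0.60 ± 0.09, adjusted p = 7.4e-06) and in B87+DMKG (-0.53 ± 0.09, adjusted p = 1.6e-05), whose libraries overlapped each other. The fall in Nutlin-3 was -0.26 ± 0.10 (adjusted p = 0.0465), with 1152, 1164 and 1228 normalized read counts. It was -0.39 with the same total (0.0068). It was lost when any 1 of the 3 Nutlin-3 or 4 Control libraries was left out (adjusted p of 0.0546 to 0.112), with quantile normalization (0.084), with no filter (0.0795) and with the replicate number as a block (0.0507). Added to B87+DMKG, Rita gave -0.97 ± 0.09 (adjusted p = 3.2e-10) and Nutlin-3 -0.51 ± 0.09 (adjusted p = 3.2e-05), and neither triple treatment overlapped B87+DMKG. TIMM23, inside the span of the row, was called higher in B87+DMKG+Nutlin-3 (0.38 ± 0.06 against Control, adjusted p = 3.5e-06) and stood at 0.01 ± 0.06 in B87+DMKG+Rita (0.879).

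RNF146, a ubiquitin ligase that binds poly(ADP-ribose) and is also called Iduna, was high with Rita. It had 1267, 1284, 1421 and 1263 normalized read counts in Rita, against 634, 664, 748 and 767 in Control. B87+DMKG+Rita had 1175, 1127, 1237 and 1108, against 601, 501, 564 and 480 in B87+DMKG. The libraries of both Rita groups lay above those of every other group. Log2 fold changes were 0.90 ± 0.09 for Rita against Control (adjusted p = 8.5e-10), 0.73 ± 0.09 for B87+DMKG+Rita against Control (3.2e-08) and 1.12 ± 0.09 against B87+DMKG (3.8e-12). With the same total the value for B87+DMKG+Rita against Control was 0.47 (0.000125).

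B87+DMKG alone lowered RNF146, at -0.39 ± 0.09 (adjusted p = 0.00035), with no overlap with Control. B87+DMKG+Nutlin-3 had 692, 717, 653 and 736 normalized read counts, above all B87+DMKG libraries (0.39 ± 0.09, adjusted p = 0.00044, and 0.24 with the same total, 0.0339) and overlapping Control (-0.00 ± 0.09, adjusted p = 0.971). After quantile normalization the value against Control was 0.25 and called higher (adjusted p = 0.0198). Nutlin-3 alone (-0.10 ± 0.10, adjusted p = 0.435) and DMKG alone (-0.10 ± 0.09, adjusted p = 0.4) overlapped Control.

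AIFM1, which encodes the mitochondrial protein AIF, changed least. It had 11015, 11188 and 11479 normalized read counts in Nutlin-3, against 8646, 8879, 8239 and 8760 in Control. All Nutlin-3 libraries were higher (log2 fold change 0.38 ± 0.07, adjusted p = 7.5e-05, and 0.25 with the same total, 0.00115). B87+DMKG+Nutlin-3 (9817 to 11440) rose by 0.30 ± 0.07 (adjusted p = 0.00026) and B87+DMKG+Rita (9956 to 10906) by 0.28 ± 0.07 (0.00054) against Control, both without overlap. With the same total the value for B87+DMKG+Nutlin-3 was 0.14 (adjusted p = 0.0366). For B87+DMKG+Rita it was 0.02 (adjusted p = 0.782) and after quantile normalization 0.11 (0.13). Against B87+DMKG (8017 to 9843), Nutlin-3 added gave 0.23 ± 0.07 (adjusted p = 0.00398), with overlap, and Rita added gave 0.20 ± 0.07 (0.00676). With the same total these were 0.08 (0.216) and -0.037 (0.571), and after quantile normalization 0.11 (0.123) and -0.0066 (0.929).

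MIF, a cytokine that also acts as the nuclease recruited by AIF, rose in both triple treatments. It had 47460, 41300, 49382 and 40451 normalized read counts in B87+DMKG+Nutlin-3 and 37212, 46670, 45676 and 47649 in B87+DMKG+Rita. B87+DMKG had 23019, 24244, 31102 and 35522, and Control 24179, 33963, 28478 and 28056. Both triple treatments lay above all libraries of the double treatment and of Control. The log2 fold changes were 0.64 ± 0.13 (adjusted p = 0.00013) for B87+DMKG+Nutlin-3 and 0.63 ± 0.13 (0.00015) for B87+DMKG+Rita against Control, and 0.67 ± 0.13 (8.6e-05) and 0.65 ± 0.13 (7.9e-05) against B87+DMKG. For B87+DMKG+Rita the change was smaller under both other scalings. It was 0.37 with the same total (0.0155) and 0.34 after quantile normalization (0.0251) against Control, and 0.41 (0.00725) and 0.37 (0.0133) against B87+DMKG. For B87+DMKG+Nutlin-3 the change was also smaller after quantile normalization, at 0.50 against Control (0.00168) and 0.53 against B87+DMKG (0.000984). With the same total, values in these comparisons shift lower too, by -0.16 and -0.14 at the median of all rows.

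Rita alone had 37377, 43916, 37963 and 33954 normalized read counts of MIF, overlapping Control by 1 library, and was called at 0.42 ± 0.13 (adjusted p = 0.00864). That call was lost with the same total (0.25, 0.121) and after quantile normalization (0.25, 0.108). DMKG alone stood at 0.31 ± 0.13 (adjusted p = 0.0618), and passed without DMKG replicate 1 (0.0416), without Control replicate 2 (0.026) and with only the groups compared (0.032). The row DDT // MIF-AS1 overlaps MIF on hg19 chromosome 22, and its reads cannot be told from those of MIF if strand was not used. It rose in B87+DMKG (0.65 ± 0.12, adjusted p = 4.4e-05), where MIF stood at -0.02 ± 0.13 (adjusted p = 0.894). Where MIF was called against Control, it rose too, in B87+DMKG+Nutlin-3 (0.84 ± 0.12, 1.1e-06), B87+DMKG+Rita (0.74 ± 0.12, 8.0e-06) and Rita (0.59 ± 0.12, 0.0002). Against B87+DMKG it was not called with Nutlin-3 added (0.19 ± 0.12, 0.199) or Rita added (0.08 ± 0.12, 0.561). The part of this row in the MIF values was not tested.

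NAMPT, the rate-limiting enzyme of NAD+ salvage from nicotinamide, was highest with DMKG. It had 168225, 158206, 175382 and 159868 normalized read counts in DMKG, against 113754, 103744, 112375 and 114293 in Control. Every DMKG library lay above every library of the other groups (log2 fold change 0.57 ± 0.10, adjusted p = 1.7e-05). Rita had 81286, 76360, 77580 and 81870, below all Control libraries (-0.49 ± 0.10, adjusted p = 1.0e-04). B87+DMKG+Rita had 83709, 86454, 84187 and 77054, also below Control (-0.42 ± 0.10, adjusted p = 0.0004), and the fall was -0.68 with the same total (2.81e-07) and -0.81 after quantile normalization (2.18e-07).

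The B87+DMKG libraries were uneven in NAMPT. They had 113749, 106069, 84417 and 74536 normalized read counts, with 5.39%, 7.51%, 4.21% and 2.24% of reads from the mitochondrial genome in the same libraries. MIF was lower in the first pair of these libraries than in the other pair. The part of the mitochondrial share in the NAMPT and MIF values was not tested. A fall of -0.25 ± 0.10 against Control was called (adjusted p = 0.0272) although the groups overlap. It was lost without B87+DMKG replicate 3 (-0.20, 0.0973) or 4 (-0.14, 0.187), without Control replicate 1, 3 or 4 (0.0526 to 0.0601), after quantile normalization (-0.16, 0.218), with no filter (0.0649) and with only the groups compared (0.0942). B87+DMKG+Nutlin-3 had 124801, 123075, 108115 and 135672, at 0.39 ± 0.10 against B87+DMKG (adjusted p = 0.00095, with overlap), 0.25 with the same total (0.0252) and 0.02 after quantile normalization (0.915). Rita added to B87+DMKG gave -0.17 ± 0.10 (adjusted p = 0.114). That became a call with the same total (-0.42, 0.000306), after quantile normalization (-0.65, 5.58e-06) and without B87+DMKG replicate 4 (-0.28, 0.00817).

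NMNAT1, the nuclear enzyme that completes NAD+ synthesis, had the lowest level and the widest changes. It had 588, 589, 564 and 628 normalized read counts in Rita, against 132, 151, 155 and 148 in Control. B87+DMKG+Rita had 440, 465, 501 and 408, against 300, 327, 304 and 290 in B87+DMKG. Rita libraries stood above those of every other group, and B87+DMKG+Rita libraries came next without overlap. Log2 fold changes against Control were 2.01 ± 0.12 for Rita (adjusted p = 3.8e-14, percentile 98.2 of all rows), 1.62 ± 0.12 for B87+DMKG+Rita (2.1e-12) and 1.05 ± 0.12 for B87+DMKG (1.9e-08). Rita added to B87+DMKG gave 0.57 ± 0.12 (adjusted p = 0.00019), or 0.33 with the same total (0.0191).

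B87+DMKG+Nutlin-3 had 261, 215, 235 and 248 normalized read counts of NMNAT1, above Control (0.71 ± 0.12, adjusted p = 1.5e-05) and below B87+DMKG (-0.35 ± 0.12, adjusted p = 0.0174). The call against B87+DMKG was lost after quantile normalization (-0.09, 0.592) and without B87+DMKG+Nutlin-3 replicate 2 (-0.30, 0.0604). Nutlin-3 alone had 201, 143 and 220, overlapping Control. Its call (0.34 ± 0.13, adjusted p = 0.0459) was lost without Nutlin-3 replicate 1 or 3, without each of the 4 Control libraries in turn, under both other scalings, with no filter, with only the groups compared and with the replicate number as a block. Without Nutlin-3 replicate 2 it was 0.52 and still called, and without replicate 3 it was 0.21 (0.289). The first bases of the NMNAT1 row overlap LZIC on hg19 chromosome 1. LZIC, chosen for its position, stood at -0.19 ± 0.08 in Rita (adjusted p = 0.0568) and fell by 0.36 ± 0.08 on the log2 scale in B87+DMKG (4.8e-04). It was also called lower against Control in B87+DMKG+Nutlin-3 (-0.20 ± 0.08, 0.0448) and B87+DMKG+Rita (-0.22 ± 0.08, 0.0268), and not in Nutlin-3 (-0.04 ± 0.09, 0.76). The part of LZIC in the NMNAT1 values was not tested.

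**Figure D3:**
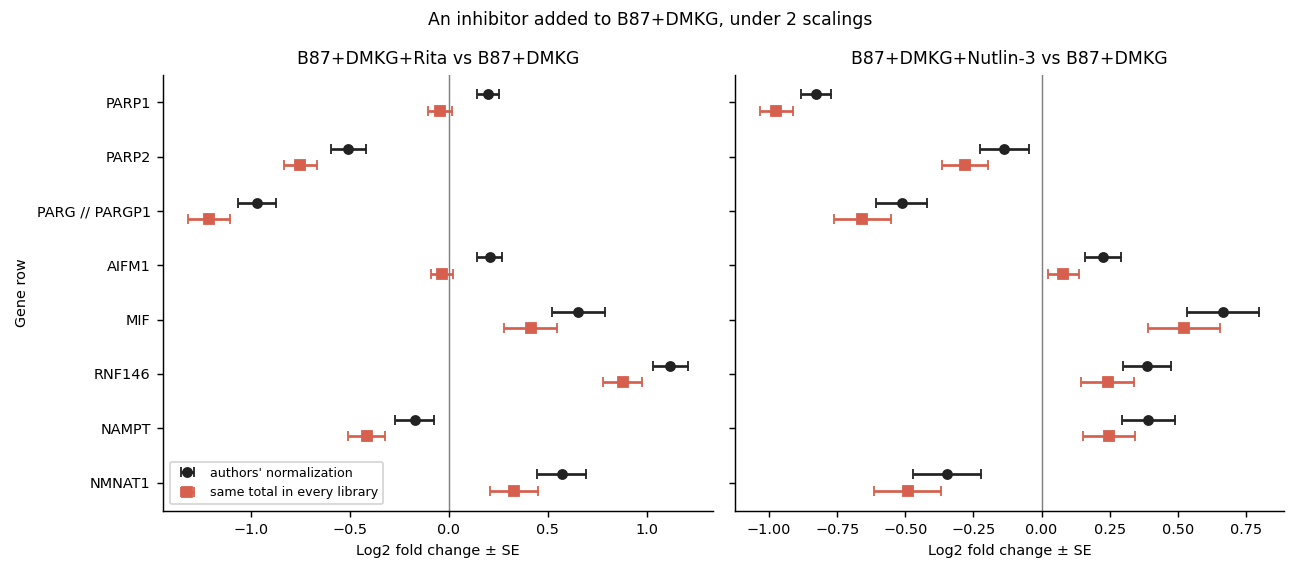
Log2 fold change ± SE (x axis) of the 8 genes (y axis) when Rita (left) or Nutlin-3 (right) was added to B87+DMKG, with circles for the authors' normalization and squares for every library scaled to the same total. PARP1 falls with Nutlin-3 under both (-0.83 with the authors' normalization), whereas PARP1 and AIFM1 with Rita lie on opposite sides of 0 under the 2 scalings.

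The median of all rows shifted when each library was given 1 common total, by -0.24 for Rita added to B87+DMKG, -0.14 for Nutlin-3 added, -0.25 and -0.16 for the Rita and Nutlin-3 triple treatments against Control, -0.17 for Rita, -0.13 for Nutlin-3 and -0.11 for DMKG, and by 0.12 for the combination beyond its parts. With that scaling the calls among the 8 genes were 3 up and 3 down for Rita added, 3 up and 4 down for Nutlin-3 added, 3 up and 4 down for B87+DMKG+Rita against Control, 2 up and 3 down for Rita, 1 up and 2 down for Nutlin-3 and 1 up and 2 down for DMKG. After quantile normalization they were 3 up and 3 down for both Rita added and B87+DMKG+Rita against Control, 2 up and 3 down for Nutlin-3 added and for Rita, and 1 up and 1 down for Nutlin-3. The calls that held their direction under both scalings include PARP1 down with Nutlin-3 added, PARG down with either inhibitor added, RNF146 and MIF up with either, PARP2 down with Rita added and NMNAT1 up with Rita added.

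Whether the double treatment exceeded the sum of its parts was tested as an interaction on the log2 scale. Of the 8 genes, 5 differed from additivity (48.8% of all rows), 2 above the sum (24.6%) and 3 below it (24.1%). PARP1 was lower than the sum by 0.38 ± 0.08 (adjusted p = 0.00017), and PARP2 was higher by 0.65 ± 0.13 (8.1e-05). NAMPT was lower, at -0.77 ± 0.14 (adjusted p = 3.1e-05), where DMKG alone stood at 0.57 and the combination at -0.25. NMNAT1 was higher, at 0.92 ± 0.18 (7.2e-05), where B87 alone stood at -0.10 and DMKG alone at 0.22. RNF146 was lower, at -0.43 ± 0.13 (0.00576), which was lost with the same total (-0.31, 0.0671).

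The effect of Nutlin-3 differed with and without B87+DMKG for 6 of the 8 genes (56.9% of all rows), 3 upward (26.4%) and 3 downward (30.6%). PARP1 had the lowest adjusted p of the 8, with -0.83 in the presence and -0.34 in the absence of B87+DMKG (difference -0.49 ± 0.08, adjusted p = 7.2e-06). That difference lay at percentile 33.6 of all rows tested, so many rows differed downward by more. NMNAT1 had values of opposite sign, at -0.35 with and 0.34 without (difference -0.68 ± 0.18, adjusted p = 0.00212, lost after quantile normalization at -0.42, 0.0624). Both of these values lost their calls under other settings, as given above. RNF146 differed by 0.49 ± 0.13 (adjusted p = 0.0022). MIF (0.51 ± 0.20, adjusted p = 0.0281), NAMPT (0.38 ± 0.14, 0.0233) and PARP2 (-0.33 ± 0.13, 0.0341) were called too, but each lost its call with no filter and when any of several single libraries was left out. NAMPT lost it too after quantile normalization (0.21, 0.278) and with only the groups compared (0.0894). With 1 library left out, the lowest values were 0.41 for MIF (without B87+DMKG replicate 1, adjusted p = 0.0747), 0.26 for NAMPT (without Nutlin-3 replicate 1, 0.12) and, nearest to 0, -0.25 for PARP2 (without Nutlin-3 replicate 3, 0.123).

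For Rita the effect differed for 3 of the 8 genes (48.6% of all rows), 1 upward (24.2%) and 2 downward (24.4%), and under both other scalings for 2, both downward. NMNAT1 rose by 0.57 with and 2.01 without B87+DMKG, a difference of -1.44 ± 0.18 (adjusted p = 1.0e-07) at percentile 9.42 of all rows. PARP2 stood at -0.51 with and 0.17 without, a difference of -0.68 ± 0.13 (adjusted p = 5.6e-05). PARP1 differed by 0.23 ± 0.08 (adjusted p = 0.0138), a call lost with the same total (0.17, 0.108) and after quantile normalization (0.18, 0.0801).

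**Figure D4:**
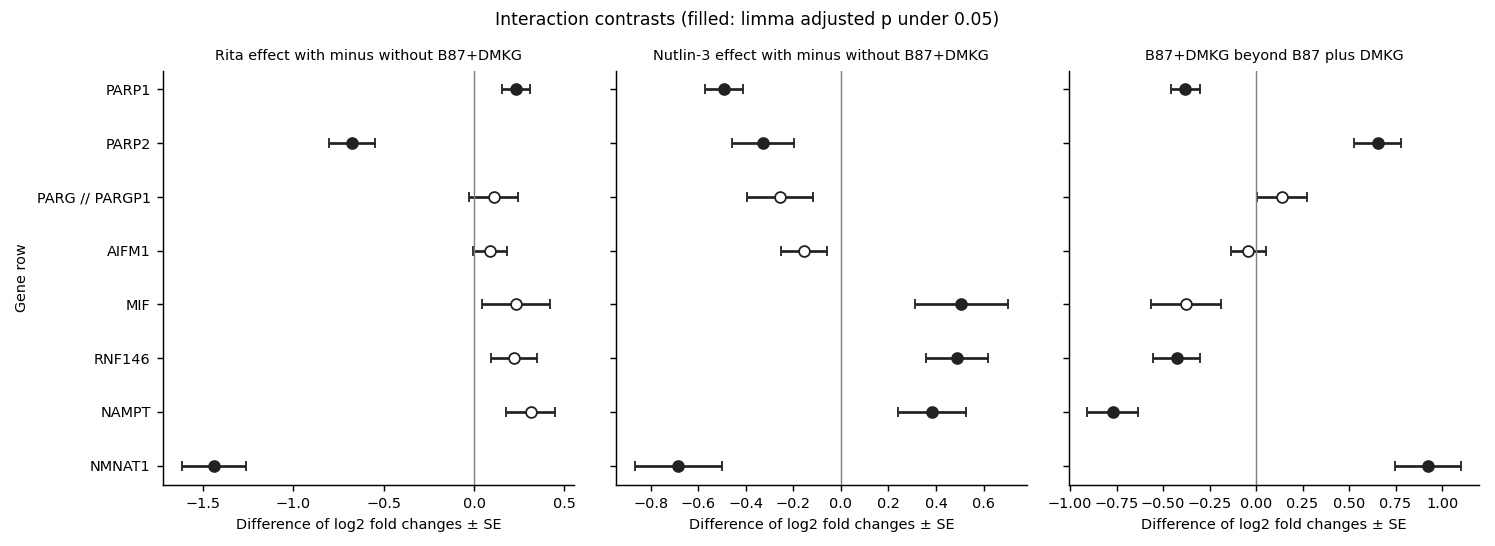
Interaction contrasts ± SE on the log2 scale (x axes) for the 8 genes (y axis): the effect of Rita and of Nutlin-3 with minus without B87+DMKG, and B87+DMKG minus the sum of B87 and DMKG, with filled circles at a limma adjusted p under 0.05. NMNAT1 lies at -1.44 for Rita and -0.68 for Nutlin-3, and at 0.92 in the contrast with the sum.

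The rest of the pathway was described by 5 lists of genes with a row of their own. Among 13 other members of the PARP family, B87+DMKG raised 6 and lowered 6 (30.2% and 30.8% of all rows; median 0.02, beside 0.00 over all rows). PARP9, which works with the ubiquitin ligase DTX3L, rose by 0.98 ± 0.15, and ZC3HAV1, the antiviral protein also called PARP13, fell by 0.98 ± 0.11 on the log2 scale. Adding Nutlin-3 to B87+DMKG raised 2 and lowered 6 (26.5% and 32.3% of all rows; median -0.20, beside -0.05), which became 1 and 6 with the same total and 3 and 2 after quantile normalization. TIPARP, a mono-ADP-ribosyltransferase induced by the aryl hydrocarbon receptor, had the largest change of the list at 2.68 ± 0.11 (adjusted p = 3.2e-18). It averaged 6423 ± 903 normalized read counts in B87+DMKG+Nutlin-3, against 1002 ± 156 in B87+DMKG and 627 ± 56.8 in Control (SD, n = 4 each).

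Adding Rita to B87+DMKG raised 0 and lowered 6 of the 13 (33.1% and 34.2% of all rows; median -0.18, beside 0.00), with PARP9 at -1.12 ± 0.15 and PARP16 at -0.89 ± 0.10. Lowered genes numbered 9 when totals were equal and 5 after quantile normalization, with 0 raised in both. TNKS, a tankyrase whose products RNF146 recognises, fell in Rita (-1.16 ± 0.22, adjusted p = 5.8e-05), B87+DMKG+Rita (-1.29 ± 0.22, 9.0e-06) and B87+DMKG+Nutlin-3 (-0.97 ± 0.22, 3.7e-04). It also fell in B87+DMKG (-0.72 ± 0.22, 0.00598), a comparison chosen after its value was seen. TNKS2, also in the list, stood far higher in Control, at 3529 ± 222 normalized read counts against 264 ± 65.8 for TNKS (SD, n = 4 each). DMKG raised 1 (TIPARP, 0.87 ± 0.11) and lowered 6 (19.6% and 21.8% of all rows; median -0.32, beside 0.03). Nutlin-3 raised 1 (PARP3, 0.46 ± 0.08) and lowered 0 (18.5% and 20.7% of all rows), or 2 with the same total. Rita raised 2 and lowered 3 (25.8% and 26.3% of all rows), against 1 and 4 with the same total and 5 and 3 after quantile normalization.

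Of 12 genes that remove or read ADP-ribose, B87+DMKG raised 5 and lowered 3 (30.2% and 30.8% of all rows; median 0.14, beside 0.00). ADPRHL2, the hydrolase that takes ADP-ribose off serine, and HPF1, the factor that directs PARP1 to serine, were low in Nutlin-3 and in B87+DMKG but not in their combination. ADPRHL2 averaged 712 ± 61.7 normalized read counts in B87+DMKG+Nutlin-3 (SD, n = 4), 262 ± 91.9 in Nutlin-3 (SD, n = 3), 308 ± 85.2 in B87+DMKG and 502 ± 37.3 in Control (SD, n = 4 each). HPF1 averaged 1577 ± 31.3 in B87+DMKG+Nutlin-3, 649 ± 37.0 in Nutlin-3, 869 ± 158 in B87+DMKG and 1233 ± 53.4 in Control, with the same n. The effect of Nutlin-3 with minus without B87+DMKG was 2.23 ± 0.24 for ADPRHL2 (adjusted p = 7.9e-09) and 1.80 ± 0.14 for HPF1 (2.5e-11). Rita raised 7 and lowered 0 of the 12 (25.8% and 26.3% of all rows; median 0.25, beside 0.03), and raised 2 and lowered 2 with the same total. After quantile normalization it raised 5 and lowered 0.

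Among 17 other genes of NAD supply and use, B87+DMKG raised 8 and lowered 4 (30.2% and 30.8% of all rows; median 0.52, beside 0.00). NNMT, which methylates nicotinamide, rose (1.65 ± 0.21, adjusted p = 9.4e-08), as did NAPRT, the entry enzyme from nicotinic acid (1.48 ± 0.25, 6.3e-06). SIRT1, an NAD-dependent deacetylase, fell (-1.59 ± 0.14, adjusted p = 3.3e-11), and so did NADK2, the mitochondrial NAD kinase (-0.97 ± 0.14, 9.4e-07). Rita added to B87+DMKG put SIRT1 at 1906 ± 229 normalized read counts, against 416 ± 99.3 in B87+DMKG and 1222 ± 57.4 in Control (SD, n = 4 each). The change from B87+DMKG was 2.22 ± 0.14 on the log2 scale (adjusted p = 1.1e-14). Nutlin-3 added left SIRT1 at 431 ± 78.3, and lowered NADK2 to 123 ± 27.7, against 336 ± 85.3 in B87+DMKG (-1.45 ± 0.14, adjusted p = 9.1e-10). NAPRT was lower with either inhibitor added, at -1.87 ± 0.25 with Nutlin-3 and -1.69 ± 0.25 with Rita. In all, Nutlin-3 added raised 3 and lowered 4 of the 17 (26.5% and 32.3% of all rows), and Rita added raised 7 and lowered 5 (33.1% and 34.2%). These counts became, with the same total, 0 and 6, and 4 and 6, and after quantile normalization 4 and 3, and 7 and 2.

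Of 14 partners of AIF and MIF, B87+DMKG raised 4 and lowered 3 (30.2% and 30.8% of all rows; median 0.08, beside 0.00). Nutlin-3 added raised 7 and lowered 1 (26.5% and 32.3%; median 0.19, beside -0.05), and Rita added raised 8 and lowered 0 (33.1% and 34.2%; median 0.32, beside 0.00). When totals were equal the last 2 were 5 up and 2 down, and 7 up and 3 down. After quantile normalization they were 8 up and 2 down, and 7 up and 1 down. ENDOG, a mitochondrial nuclease, rose with Nutlin-3 added (1.24 ± 0.31, adjusted p = 0.00105) and with Rita added (1.28 ± 0.31, 6.1e-04). H2AFX, a histone that AIF works with on DNA, rose with Rita added (1.07 ± 0.13, adjusted p = 2.6e-08). CXCR4, a MIF receptor, averaged 49.4 ± 18.9 normalized read counts in B87+DMKG+Rita and 1.33 ± 2.67 in B87+DMKG (SD, n = 4 each). Over all 31 libraries it averaged 10.3, just past the filter of 10, and no other group averaged above 14.8. It thus passed the filter through the group where it is high, and it is among the 14 genes counted. Nutlin-3 alone raised 3 and lowered 3 (18.5% and 20.7% of all rows; 3 and 4 under both other scalings), with BAX, a pore-forming p53 target, at 0.88 ± 0.10 and BID, its activator, at -0.74 ± 0.09.

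Of 19 genes of single-strand break and base excision repair, in which PARP1 acts, B87+DMKG raised 6 and lowered 6 (30.2% and 30.8% of all rows; median -0.07, beside 0.00). MUTYH, an adenine glycosylase, rose (1.53 ± 0.14) and NEIL3, another glycosylase, fell (-1.23 ± 0.12). Nutlin-3 raised 3 and lowered 8 (18.5% and 20.7% of all rows; 0 and 8 with the same total), with UNG, the uracil glycosylase, at 945 ± 18.3 normalized read counts (SD, n = 3), against 2581 ± 118 in Control (SD, n = 4), a change of -1.45 ± 0.07 (adjusted p = 1.7e-16). Nutlin-3 added to B87+DMKG raised 8 and lowered 3 (26.5% and 32.3% of all rows; 4 and 4 with the same total), and Rita added raised 7 and lowered 3 (33.1% and 34.2%; 2 and 6 with the same total). After quantile normalization these were 8 and 3, and 7 and 4, and Nutlin-3 alone had 2 and 8. TDP1 and LIG3, which clean and seal broken ends, both fell with Rita added, at -0.77 ± 0.06 and -0.70 ± 0.06. The remaining comparisons of these lists gave 0 calls for B87 in each of the 5, and their counts for the other treatments are in the plot of pathway genes.

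**Figure D5:**
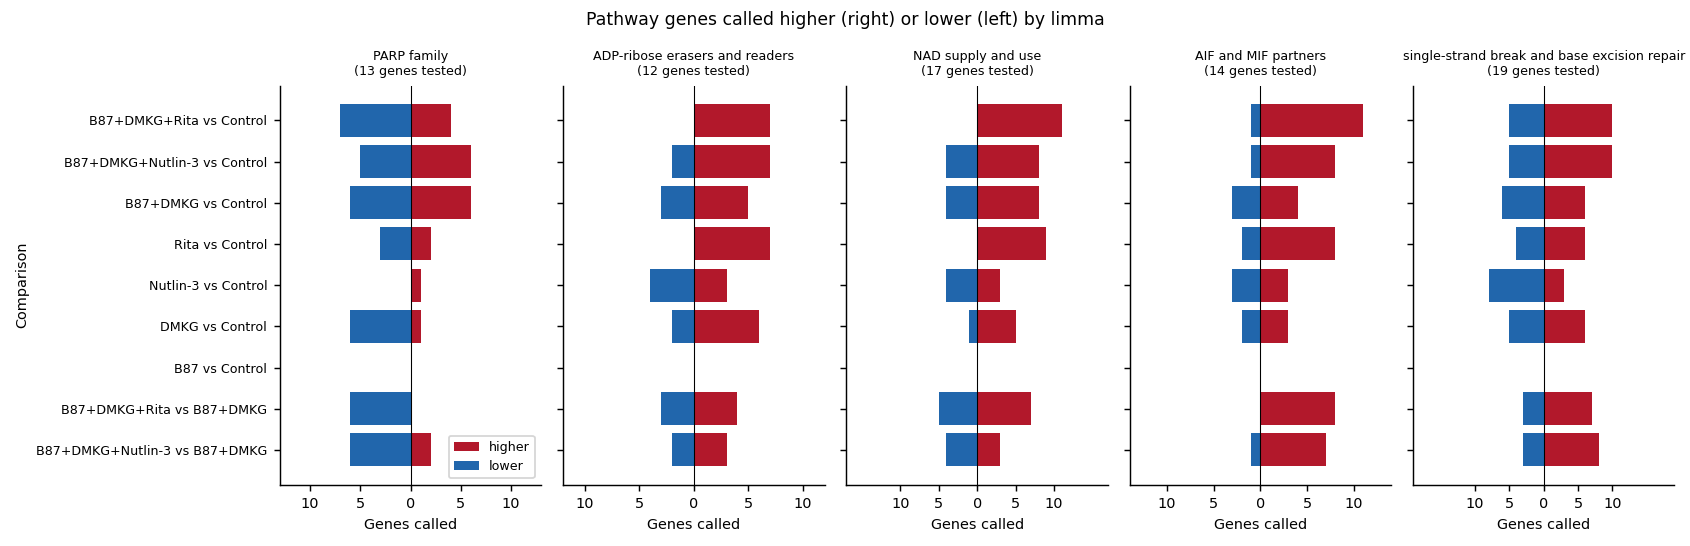
Number of genes called higher (right of 0) or lower (left of 0) by limma in 5 pathway lists, for 7 treatments against Control and both inhibitors added to B87+DMKG (y axis). Rita added to B87+DMKG lowers 6 PARP family genes and raises 0, and B87 alone has 0 calls.

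For each gene the row whose log2 values followed it most closely over the 31 libraries was found among 11147 rows that name 1 gene and have a mean of at least 50 (11148 for PARG). These correlations are descriptions over libraries that share treatments. PARP1 was closest to WRNIP1 (Pearson r 0.97), PARG to ATXN7L3B (0.95), MIF to MRPL41 (0.97), NMNAT1 to CRABP2 (0.95), RNF146 to CGGBP1 (0.95), NAMPT to FXR1 (0.92), AIFM1 to MANF (0.90) and PARP2 to POLR2J4 (0.88). Between the 8 genes the values ran from -0.80 (PARG and NMNAT1) to 0.67 (RNF146 and NMNAT1), with PARP1 and PARP2 at -0.59.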

How the data were processed

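Poly(A) RNA of 31 H460 libraries in 8 groups was measured 6 h after treatment, with the groups taken from the labels. Per the labels, cells of 2 wells were joined, RNA was purified with a Qiagen micro kit and libraries were made with the stranded TruSeq mRNA kit. The submitters' processing notes name STAR 2.4.0, SAMtools, Picard, FastQC and DESeq2, and give mm10 as the build, but per the file headers gene positions are on hg19, the build used here for positions. Whether reads were assigned by strand is not given in the sources used here. Each deposited value (signal) is a gene's read count after per-library normalization by the authors, as read from the values and the mention of DESeq2 in those notes.

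The 8 genes and the lists were chosen with earlier results of these data known. The rule for named genes took all 8 genes in every comparison, up to 4 called genes of each list with the largest change, MDM2 and CDKN1A as checks of the labels, and neighbours that could share reads. All 690132 values above 0 were whole multiples of a step per library (100% within 0.1 step), which gave whole reads. No 2 libraries of the same group were duplicates, since the lowest chi-square per degree of freedom within a group was 6.94. Pairs from different groups were not compared in this way. Rows with a mean normalized count of at least 10 (16259 of 74834) were tested on log2(normalized count + 1) by the linear models of limma 3.58.1 with a mean-variance trend, run under R 4.3.3. All libraries entered 1 fit with no block (23 residual degrees of freedom), with Benjamini-Hochberg adjustment over all rows and a threshold of 0.05. The fit was tested on simulated data. Adding 1 before the logarithm understates changes of low genes.

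Other settings tried were edgeR 4.0.16 and, separately, DESeq2 1.42.0 (both on whole reads), a fit with replicate number as a block, a fit of the compared groups alone, equal library totals, quantile normalization, a minimum mean of 50 or none, a pseudocount of 0.5 or 5, and fits that left out single libraries, DMKG replicates 1 and 2, or DMKG replicates 3 and 4. The DMKG libraries formed 2 pairs. Pearson r of log2 values was 0.987 for replicates 1 and 2 and 0.990 for replicates 3 and 4, against 0.973 to 0.979 across the pairs. PARP2 had 4263 and 4127 normalized read counts in the first pair and 5317 and 5100 in the second. Leaving out rows that combine genes was added after seeing the data. Exon lengths came from GENCODE v29 and promoters from RefSeq.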

Additional observations from a re-analysis of the deposited data

Results flagged for a closer look

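Of 56 groups of 4 libraries, 3 had a library set apart from the others, where chance sets apart about 1 in 20. PARP2 in B87 replicate 4 was high at 5270 normalized read counts, with the nearest library at 4490; this is the library with the fewest reads. PARG in Rita replicate 4 was low at 555 (nearest 695). RNF146 in Rita replicate 3 was high at 1421 (nearest 1284).

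Another 14 results concern effects that differed between settings by a limma interaction test. Against the sum of B87 and DMKG, the combination differed by -0.38 for PARP1, 0.65 for PARP2, -0.43 for RNF146, -0.77 for NAMPT and 0.92 for NMNAT1. The effect of Nutlin-3 with minus without B87+DMKG was -0.49 for PARP1, -0.33 for PARP2, 0.51 for MIF, 0.49 for RNF146, 0.38 for NAMPT and -0.68 for NMNAT1. The effect of Rita with minus without B87+DMKG was 0.23 for PARP1, -0.68 for PARP2 and -1.44 for NMNAT1.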

How the results depend on the processing

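Over the alternatives, 1919 values of the 8 genes kept their side of the threshold, 68 lost a call and 29 gained one. Another 4 reversed in sign with a call in either fit. Sign changes of values called in neither fit are counted among the 1919. An example is NAMPT in B87+DMKG+Nutlin-3 against Control, at 0.14 and, after quantile normalization, -0.14. The reversals were RNF146 in B87+DMKG+Nutlin-3 against Control after quantile normalization (0.25), and, for Rita added to B87+DMKG, AIFM1 after quantile normalization (-0.0066) and with the same total (-0.037) and PARP1 with the same total (-0.047). Of the counts of called genes, 12 moved by over 1.5 times. Nutlin-3 against Control had 2 in place of 4 with no filter, after quantile normalization and when replicate numbers were a block, and 2 to 3 with 1 library left out. DMKG against Control had 4 in place of 2 with only the groups compared, 1 with rows that name 1 gene only (added after seeing the data), and 2 to 4 with 1 library left out. Rows that name 1 gene only leave out the combined PARG row, so its call could not be made in that setting. The Nutlin-3 contrast with minus without B87+DMKG had 3 in place of 6 with no filter, and 4 to 6 with 1 library left out.

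The replicate numbers do not pair the libraries: over 105 pairs that share a number the median correlation of deviations was -0.0033, with 6 above 0.1, and 8 libraries matched best with their own number. Apart from the count of 2 given above, the block changed no count among the 8 genes. The causes were not tested. B87 against Control had 7 rows called, 14 with only the groups compared, 30 with DESeq2 and 2 to 7 with 1 library left out. Depth was no narrow limit for these genes, since the lowest value was 73 whole reads (NMNAT1).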
